A study of Mus musculus with 18 samples.

Results

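The regions described here are stretches of the mouse genome where peaks for the transcription factors NFIA and NFIB ranked low in normal granule neuron progenitors and high both in cerebellar hyperplasia and in the medulloblastoma that follows. They were chosen by their measured values. The 30000 highest-scoring autosomal summits of each of 18 libraries were widened by 100 bp on each side and merged, and regions hit by at least 3 libraries were kept. A region counted as gained early and kept in tumor if it held such a top summit in at most 1 of 6 libraries of granule neuron progenitors (GNPs), in at least 5 of 6 of hyperplasia and in at least 5 of 6 of tumor. Of 42017 regions, 318 (0.757%) met these criteria.

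The libraries were made by CUT&Tag, in which an antibody guides a transposase to cut and tag the chromatin around a protein, from 100000 cells each. GNPs came from cerebella at postnatal day 7, hyperplastic cells at postnatal day 28 and tumor cells from adult cerebella, all purified on Percoll gradients, with 3 preparations per stage and 1 NFIA and 1 NFIB library per preparation. The sources used here give neither the genotype of the mouse model nor that of the GNP donors. Stage and age changed together and cannot be told apart. The labelled cell types could not be checked against expression, since the deposited values were summit lists. Nothing states that the preparations came from separate animals, so p-values of tumor against hyperplasia measure the spread between preparations only. Those of NFIB against NFIA, fitted to single libraries, measure the spread between libraries.

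NFIA and NFIB belong to the nuclear factor I family, whose members bind DNA as dimers at paired copies of the sequence TTGGC and also at single copies. In the cerebellum they are known for steering granule neurons from proliferation to maturation, including axon growth and synapse formation. GNPs divide in the outer layer of the young cerebellum in response to sonic hedgehog, and they are the cells from which medulloblastomas of the sonic hedgehog type arise.

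Few of the 318 regions reached a promoter. Of 31396 windows of the 250 bases before a RefSeq transcription start, 9586 overlapped any of the 42017 regions. Such a window overlapped one of the 318 in 7 cases, at the genes Aox1, Ptpn13, Thsd7a, Dnase2a and Trak1 and the transcripts Gm41862 and 1700054K19Rik. The following 5 windows, 4 of the 5 that hold TTGGC and 1 of the other 2, show how the windows differ in this motif. They are RefSeq sequence of GRCm38.p6 (the mm10 assembly), each on the plus strand and written 5′ to 3′, with every TTGGC or its reverse complement GCCAA in capitals. They are the window of Aox1, which encodes an aldehyde oxidase, at chr1:58029719-58029968, that of Ptpn13, a cytoplasmic tyrosine phosphatase gene, at chr5:103424942-103425191, that of the non-coding transcript Gm41862 at chr19:53084787-53085036, that of 1700054K19Rik at chr6:112210458-112210707 and that of Trak1, whose product links mitochondria to kinesin, at chr9:121366708-121366957.
Aox1: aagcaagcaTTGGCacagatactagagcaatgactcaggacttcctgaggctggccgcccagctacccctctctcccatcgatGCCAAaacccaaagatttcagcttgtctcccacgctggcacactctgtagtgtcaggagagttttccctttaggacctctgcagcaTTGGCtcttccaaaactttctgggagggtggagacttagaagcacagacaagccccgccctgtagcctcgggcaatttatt
Ptpn13: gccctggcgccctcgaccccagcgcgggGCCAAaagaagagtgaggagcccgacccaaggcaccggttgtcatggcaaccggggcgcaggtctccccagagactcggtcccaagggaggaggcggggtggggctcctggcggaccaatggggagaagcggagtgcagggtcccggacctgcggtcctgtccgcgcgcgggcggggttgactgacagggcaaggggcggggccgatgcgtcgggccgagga
Gm41862: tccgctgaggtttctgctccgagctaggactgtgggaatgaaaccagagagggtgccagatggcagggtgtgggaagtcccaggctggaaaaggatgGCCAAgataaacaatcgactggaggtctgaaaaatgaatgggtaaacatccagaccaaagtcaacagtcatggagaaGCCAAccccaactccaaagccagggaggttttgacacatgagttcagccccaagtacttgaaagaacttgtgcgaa
1700054K19Rik: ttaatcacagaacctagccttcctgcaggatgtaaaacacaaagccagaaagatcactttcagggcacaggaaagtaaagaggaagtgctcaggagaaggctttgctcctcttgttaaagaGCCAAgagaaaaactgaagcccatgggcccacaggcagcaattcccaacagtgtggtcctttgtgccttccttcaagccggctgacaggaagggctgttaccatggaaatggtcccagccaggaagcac
Trak1: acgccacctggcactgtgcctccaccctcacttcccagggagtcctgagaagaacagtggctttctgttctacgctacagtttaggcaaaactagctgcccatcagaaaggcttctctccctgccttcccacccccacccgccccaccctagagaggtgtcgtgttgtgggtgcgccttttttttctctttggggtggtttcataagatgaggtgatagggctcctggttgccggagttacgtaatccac

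TTGGC on either strand stood in 5 of the 7 windows. It stood in 41.5% of all 31396 promoter windows of the same length on the autosomes covered by the sequence table, and in 49.3% of the 9586 windows that overlapped any region. Aox1 held 3 copies, Gm41862 held 2, Ptpn13, Thsd7a and 1700054K19Rik held 1 each, and Dnase2a and Trak1 held 0. The paired form, TTGGC followed after 5 bases by GCCAA, was found in none of the 7 windows, in 0.0382% of all windows and in 0.0626% of those overlapping a region. These matches describe letters in a window, and 7 windows are too few to set the regions apart. The Gm41862 window lay in a region without any GNP summit, with ranks from 3276 to 27017 (median 6927.5) in the 6 hyperplasia libraries and from 7427 to 23792 (median 14712.5) in the 6 tumor libraries. The region at 1700054K19Rik ranked from 3403 to 11859 (median 6076.5) in hyperplasia and from 3064 to 15861 (median 6961.5) in tumors, and from 27536 to 49784 in the 4 GNP libraries that listed a summit there. At Aox1 the ranks overlapped between stages, with 9080 to 32662 in hyperplasia, 6223 to 24011 in tumors and 27857 to 63175 in the 5 GNP libraries with a summit.

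A rank of 1 is the highest-scoring autosomal summit of a library, so a lower rank means a stronger peak relative to the others of that library. Ranges and medians of ranks are over the libraries that listed a summit in the region. Ranks were used because the lists held 49166 to 374375 autosomal summits and the read depth behind them is unknown. The score of the last of the 30000 summits ran from 3.46 to 9.84 across the libraries, so that the same rank stands for different scores. The score is the −log10 of a p or q value, and the file does not say which. Stage in the sample title and in the deposited file name agreed for every library, whereas the target differed between them in 6 of 18, and titles were used. The second NFIA library of hyperplasia stood apart, and 20.4% of its top summits tied with the last one kept. Leaving it out gave 422 regions, which included 316 of the 318.

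The 318 regions held a top summit in 15 to 46 cases per GNP library (median 26.5), in 221 to 311 per hyperplasia library (302.5) and in 266 to 306 per tumor library (295). These counts follow from the selection and are given as a description. Zero GNP libraries had a top summit in 138 regions and 1 had one in 180, and a further 228 regions lay just outside the limit with 2. Hyperplasia libraries numbered 6 in 148 and 5 in 170 regions, with 154 just outside at 4. Tumor libraries numbered 6 in 157 and 5 in 161, with 156 just outside at 4. Without GNP preparation 1, 2 or 3, whose absence loosens the limit, 509, 495 and 543 regions met the criteria. The cleanest pattern, with no GNP library and all 12 of hyperplasia and tumor, was held by 31 regions. Of the 904 regions gained in hyperplasia, the 318 were 35.2%, and of the 958 gained in tumor they were 33.2%.

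Most of the regions were listed in GNPs as well, lower down. Over the whole lists, 137 to 282 of the 318 had a summit in a given GNP library (43.1% to 88.7%), against 69.7% to 91.7% of all regions. The median rank of the listed summits was 37752 to 50812.5 in GNP libraries, 12023.5 to 14753 in hyperplasia and 11214 to 13991.5 in tumors. A GNP summit of some rank was present in at least 4 of the 6 GNP libraries in 228 regions (71.7%), against 84.8% of all regions. The same held for 66 of 166 regions seen in hyperplasia only (39.8%) and for 89 of 178 gained in tumor only (50%). In 92 of the 318, at least 3 GNP libraries ranked the region at 40000 or better, just below the limit, while in 147 at most 1 did. At a limit of 50000 the balance turned, with 165 regions at 3 or more GNP libraries and 84 at 1 or fewer.

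**Figure D1:**
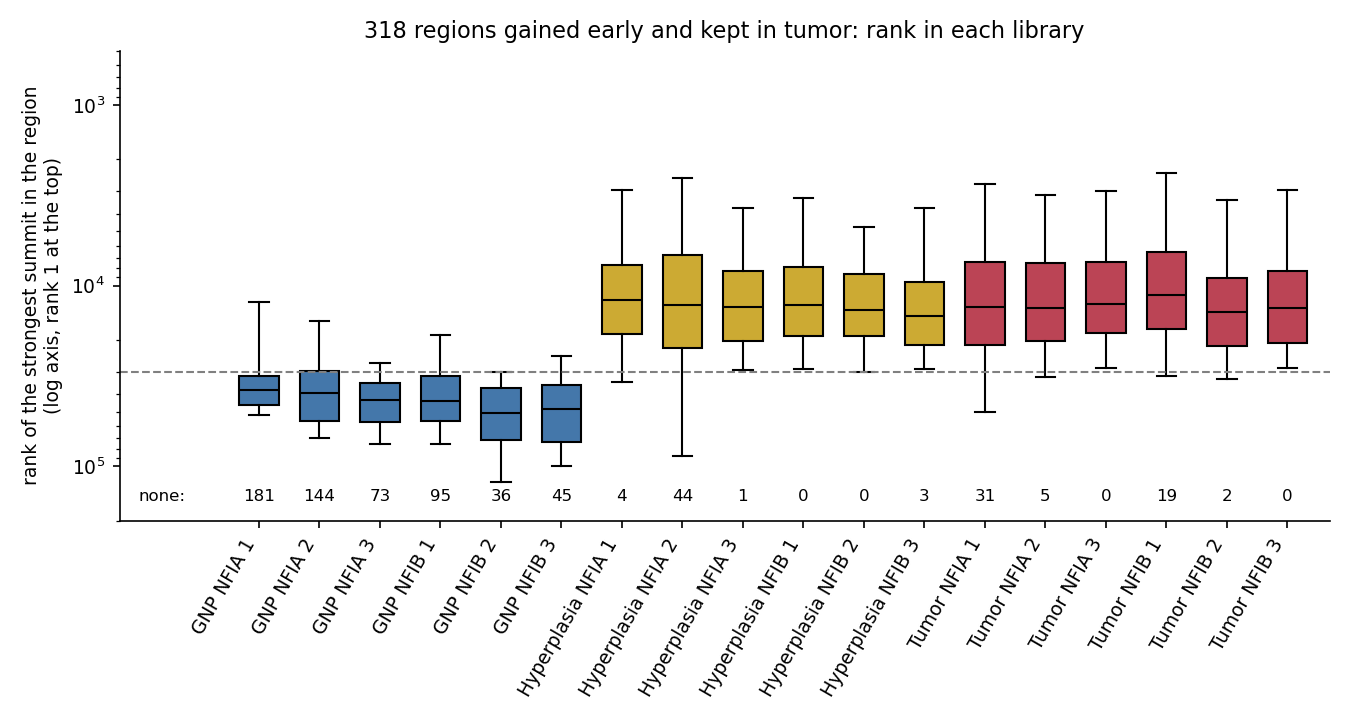
Rank of the strongest summit of each of the 318 regions in each of the 18 libraries, on a log axis with rank 1 at the top. Boxes span the quartiles with the median as a line, whiskers the 5th to 95th percentiles, over the regions with a listed summit; the numbers along the bottom count the regions with none, and the dashed line is rank 30000. The GNP medians lie between 37752 and 50812.5, and those of hyperplasia and tumor between 11214 and 14753, a separation that the selection sets.

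A complete lack of a GNP summit was seen in 6 of the 318 regions (1.89%), close to the 1.54% of all regions. They lay inside the genes of the acid-sensing channel subunit Asic2 (chr11:81488692-81489495), the synaptic cadherin-like protein Clstn1 (chr4:149594857-149595400) and the forkhead factor Foxp2 (chr6:15285247-15285613), 46106 bp from the aminopeptidase gene Xpnpep1 (chr19:53084500-53085036), 12289 bp from Hsbp1 (chr8:119360795-119361641), which encodes a heat shock factor binding protein, and away from any gene (chr3:49983618-49984033). The 6 were singled out by this property. Regions without any GNP summit made up 15.7% of those seen in hyperplasia only and 5.62% of those gained in tumor only. Without GNP preparations 1, 2 or 3 in turn, 9, 16 and 11 of the 318 had no GNP summit.

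The 10 regions with no GNP library, all 12 others and the best worst rank included 4 on chromosome 6. The strongest lay inside Nhej1, a gene of DNA end joining (chr1:75040478-75040854). It ranked from 906 to 7093 in the hyperplasia libraries (median 1413) and from 1682 to 6297 in the tumors (median 3815), and GNP libraries listed it 4 times, at 31470 to 77021. Without the third hyperplasia preparation its hyperplasia median was 4038. Hyperplasia and tumor ranks overlapped and both stages stood clear of the GNP ranks. The region 14337 bp from Crabp1, whose product binds retinoic acid in the cytoplasm (chr9:54750178-54750645), ranked from 3103 to 11024 in hyperplasia (median 7774.5) and from 6577 to 11644 in tumors (median 8069). All 6 GNP libraries listed it, between 32120 and 55031, so that it was a weaker peak in GNPs rather than one missing from the lists.

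Chromosome 6 contributed regions at Hk2, Tril, Klrb1a and a stretch far from genes. The region inside Hk2, which encodes a hexokinase that commits glucose to glycolysis (chr6:82736836-82737416), ranked from 1360 to 14085 in hyperplasia (median 8747) and from 1577 to 6461 in tumors (median 3233), with 4 GNP libraries at 41013 to 83876. The region 19007 bp from Tril, a gene for an accessory protein of Toll-like receptors (chr6:53839656-53840009), ranked from 1735 to 13484 (median 7940.5) in hyperplasia and from 2493 to 5822 (median 3536) in tumors. The one without a gene in reach (chr6:43859332-43859872) ranked from 3139 to 16143 (median 5144) and from 1316 to 4253 (median 3029). At these 3 places the tumor median was stronger than that of hyperplasia, and the ranks of the stages overlapped. Near Klrb1a, a gene for a lectin-like receptor of natural killer cells (chr6:128606118-128606659, 2839 bp away), the medians were 8011.5 in hyperplasia and 8612 in tumors.

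The remaining 4 of the 10 were nearest to Sema3e, Ptprn2, Cdca2 and Nod2. Inside Sema3e, which encodes a secreted semaphorin that guides axons and vessels (chr5:14195237-14195578), ranks ran from 3214 to 9441 in hyperplasia (median 5987.5) and from 1663 to 16546 in tumors (median 4200). A single GNP library listed this region, at rank 98501. Inside Ptprn2, a gene of dense-core vesicles (chr12:116576649-116577315), the medians were 8921.5 and 9762.5, with 5 GNP libraries at 34157 to 66476. The region 51951 bp from Cdca2, whose product targets a phosphatase to mitotic chromosomes (chr14:67620989-67621470), had medians of 4739.5 in hyperplasia and 11383 in tumors. That inside Nod2, a sensor of bacterial cell walls (chr8:88655297-88655637), had medians of 10791.5 and 14158. Tumor and hyperplasia ranks overlapped in all of these regions.

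**Figure D2:**
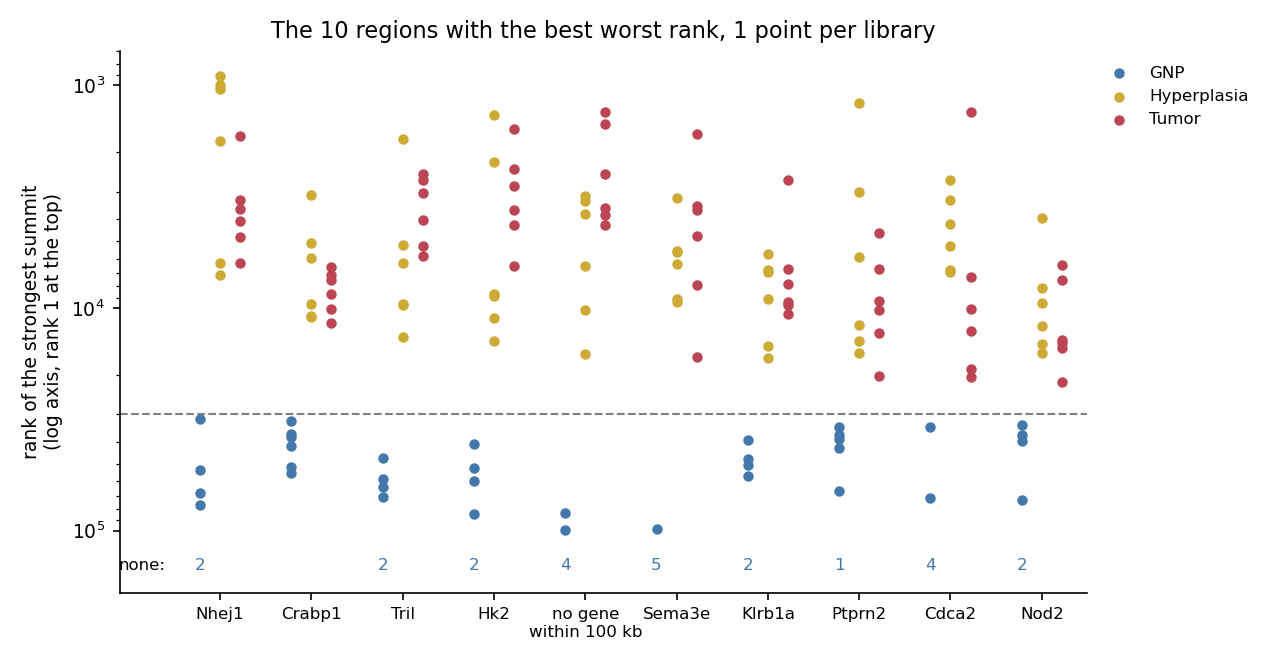
Rank of the strongest summit in each library for the 10 regions named above, on a log axis with rank 1 at the top, with 1 point per library and the stages side by side; the dashed line is rank 30000 and the numbers along the bottom count GNP libraries without a summit. Every hyperplasia and tumor point lies above the line and every GNP point below it, as the selection requires, and the GNP libraries without a summit number from 0 at Crabp1 to 5 at Sema3e.

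The rule did not use the target, so each target was used to choose regions that were then read in the other. Asking for no GNP library and all 3 hyperplasia and all 3 tumor libraries of NFIA alone gave 153 regions. In the NFIB libraries, 31 of them (20.3%) had the same complete pattern, against 0.671% of all regions, and 98 (64.1%) had it with 1 library allowed to differ in each stage, against 6.41%. They were hit by a mean of 0.765 of 3 NFIB libraries of GNPs, 2.60 of hyperplasia and 2.48 of tumor, where all regions had 1.74, 1.76 and 1.69. Choosing on NFIB gave 282 regions, of which the NFIA libraries showed the complete pattern in 31 (11.0%, against 0.364% of all regions) and the looser one in 169 (59.9%, against 5.90%). Regions chosen in one target thus had fewer GNP hits and more hyperplasia and tumor hits than all regions in libraries titled as the other. All 18 libraries are those the rule used, so this is a description and not separate support. The NFIA and NFIB libraries came from the same preparations, which is not a repeat in new animals. File names give both libraries of preparations 1 and 3 the same target in every stage. If the file names are right, the reading there was not in another target. The looser pattern is also what the rule asks of a region chosen this way, so the 98 and 169 are regions that met the rule.

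NFIA and NFIB ranks were then compared within the 318 across the 12 libraries of hyperplasia and tumor. All 3 NFIB libraries of hyperplasia held a top summit in 282 regions and all 3 NFIA libraries in 184, where the NFIA count includes the library that stood apart. In tumors the counts were 246 and 229. limma on log2 rank over all 42017 regions, with stage as a term and Benjamini-Hochberg adjustment, called 0 of the 318 regions and 0% of all, with the lowest adjusted p among the 318 at 0.884. At an unadjusted p under 0.05 there were 19 of the 318 (5.97%), 10 stronger in NFIB and 9 in NFIA, against 3.18% of all regions. The median difference in log2 rank, NFIB minus NFIA, was 0.01 (quartiles −0.30 and 0.36), with a median standard error of 0.45. The background of 3.18% includes regions with few top summits in these libraries. In an unplanned limma fit to the 23401 regions with a top summit in at least 6 of the 12 libraries, the order was the reverse. There, 3.77% of the 318 had an unadjusted p under 0.05, against 4.1% of all regions fitted.

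Hyperplasia and tumor were compared because the selection asks the same of both. Each preparation was given the mean log2 rank of its NFIA and NFIB libraries, with any rank beyond 30000 set to the next whole number, and 3 preparations were tested against 3. limma over all regions called 0 of the 318 and 0% of all 42017 at an adjusted p of 0.05, and the lowest adjusted p among the 318 was 0.273. At an unadjusted p under 0.05 there were 49 of the 318 (15.4%), 28 stronger in tumor and 21 in hyperplasia, against 11.4% of all regions. The median difference, tumor minus hyperplasia, was −0.05 (quartiles −0.47 and 0.39), with a median standard error of 0.42, and 167 of the 318 had a lower and so stronger rank in tumor. The test thus did not separate the stages for any region, which does not show that the ranks were alike. In simulated data this fit recovered 2 of 100 regions changed by 2 in log2 rank and 38 of 100 changed by 4.

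Restricting the fit to the 23401 regions with a top summit in at least 6 of those 12 libraries, an alternative planned beside the full fit, called 10 of the 318 regions, against 2.92% of all regions fitted. Of these, 7 were stronger in tumor (background 1.9%) and 3 in hyperplasia (background 1.02%). The share of the 318, all of which were in this fit, was close to the background. At an unadjusted limma p under 0.05 there were 48 of the 318 (15.1%) in this fit, against 18.5% of all regions fitted. The order of these shares was the reverse of that in the full fit, whose background includes regions with few top summits. Both backgrounds can also include regions with top summits mostly in a single stage, which the rule keeps out of the 318. The shares are thus not on equal terms. Without hyperplasia preparations 1, 2 and 3 in turn, 5, 4 and 5 of the 318 were called, and without tumor preparations 1, 2 and 3, 9, 5 and 5. All 10 kept their direction, but they were chosen for large differences in these same preparations, so this is no support. Each time 4 or 5 of the 10 still passed, and the regions at Tspan11 and Pde4dip passed in every case. Over all fitted regions, 188 to 445 were then called in place of 683.

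Of the 7 that were stronger in tumor in this restricted fit, 3 lay on chromosome 6. The region 14922 bp from the tetraspanin gene Tspan11 (chr6:127872261-127872914) had geometric mean ranks of 16168, 7282 and 21678 in the 3 hyperplasia preparations and of 1044, 1596 and 4657 in the tumors. The groups did not overlap, and the difference in log2 rank was −2.79 (SE 0.58, limma adjusted p = 0.000935). The region inside Vwf, the gene of the von Willebrand clotting factor (chr6:125597808-125598201), had 2655, 7638 and 8146 in hyperplasia and 1124, 601 and 948 in tumors (difference −2.67, SE 0.63, limma adjusted p = 0.00475). The region inside Ssu2 (chr6:112383059-112383559) differed by −2.52 (limma adjusted p = 0.00289). These 3 regions stood on a chromosome whose regions had stronger ranks in tumor as a whole.

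The other 4 lay elsewhere. Inside Pde4dip, which encodes the centrosome and Golgi scaffold myomegalin (chr3:97854574-97855145), the ranks were 25904, 12237 and 22095 in hyperplasia and 5645, 2954 and 2402 in tumors (difference −2.48, limma adjusted p = 0.00246). Inside Asic2 (chr11:81752664-81753135) they were 14022, 10362 and 13268 against 863, 4992 and 6173 (−2.06, SE 0.57, limma adjusted p = 0.0225). In both places every tumor preparation was stronger than every hyperplasia preparation. The region 5270 bp from Dzank1 (chr2:144465024-144465547) differed by −2.29 (limma adjusted p = 0.00590), and that inside Poc1a, a gene of a centriole protein (chr9:106344962-106345726), by −1.70 (0.0466).

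The 3 regions stronger in hyperplasia in the restricted fit lay 38065 bp from Bcar3, an adaptor of cell adhesion signaling (chr3:122381456-122381928), 52376 bp from Ywhaz, a 14-3-3 gene (chr15:36854800-36855921), and inside Agmo, which encodes an enzyme that cleaves ether lipids (chr12:37395980-37396670). At Bcar3 the ranks were 3026, 1192 and 4895 in hyperplasia and 8855, 11640 and 11960 in tumors (difference 2.04, SE 0.58, limma adjusted p = 0.0253). At Ywhaz they were 2668, 4749 and 3046 against 5903, 19876 and 15412 (1.85, limma adjusted p = 0.0422), and at Agmo 6865, 3745 and 6643 against 23936, 15575 and 19546 (1.80, limma adjusted p = 0.0372). The preparations of the stages did not overlap at these 3 places. Membership requires a top summit in at least 5 of the 6 tumor libraries, so these regions were weaker in tumor and not missing from it.

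**Figure D3:**
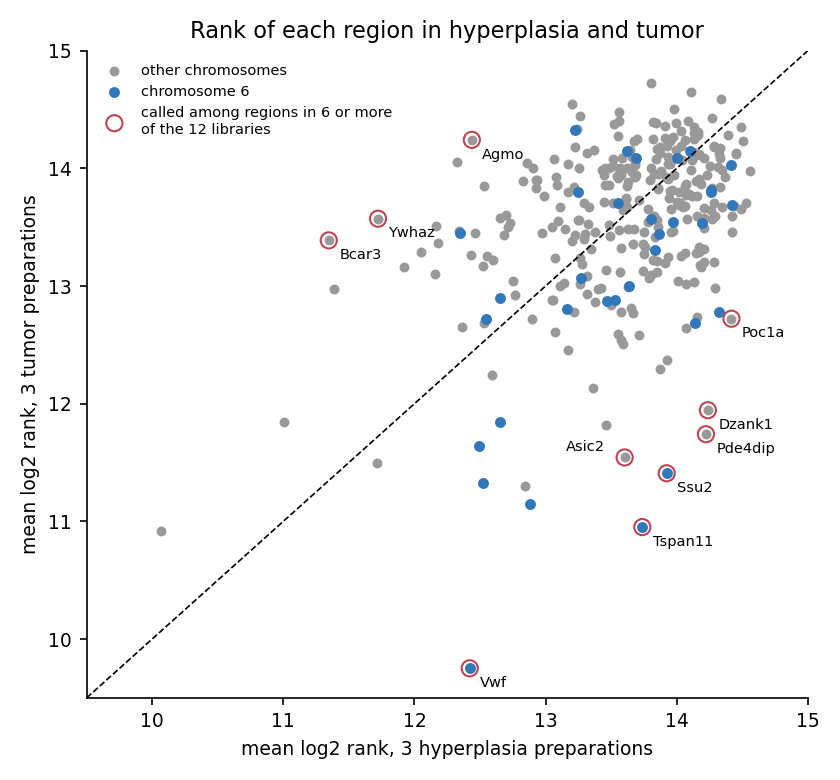
Mean log2 rank of each of the 318 regions in the 3 hyperplasia preparations (horizontal) and the 3 tumor preparations (vertical), where lower is stronger and the dashed line marks equal ranks. Blue points are the 33 regions on chromosome 6, and rings mark the 10 regions called when only regions in at least 6 of the 12 libraries were fitted, 7 of them below the line (stronger in tumor) and 3 above it.

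The regions lay away from gene ends. Within 1 kb of either end of a protein-coding gene were 12 of the 318 (3.77%, 95% exact binomial interval 1.96% to 6.50%, which treats regions as independent), against 22.6% of all regions. Inside a gene beyond that were 157 (49.4%) and between genes 149 (46.9%), against 42.0% and 35.4%. Among regions gained and kept, the share near a gene end was 8.98% with the 15000 highest-scoring summits and 7.45% with NFIB libraries alone. With the 12 libraries of agreeing target labels it was 8.08%. All of these lie outside the interval, while NFIA libraries alone gave 2.61%. The other 6201 regions hit by 10 to 13 libraries, as many as the 318, had 23.7% near a gene end. Other regions that changed with stage were also low, at 4.82% in hyperplasia only, 5.62% in tumor only and 6.77% among the 532 lost early and absent in tumor. Regions found in all 18 libraries had 34.0%. A low share near gene ends was thus seen in these 4 sets, and other patterns of change with stage were not run.

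**Figure D4:**
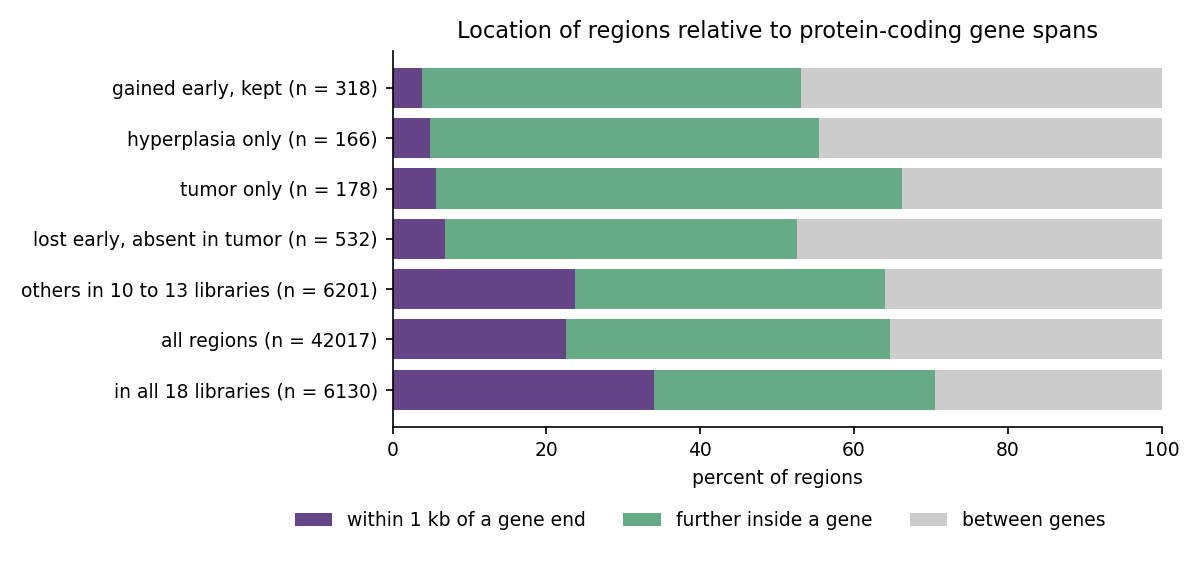
Location of regions in percent, split into those near a gene end (1 kb or less), those deeper inside genes and those outside them, for the 318 regions gained early and kept and for 6 comparison sets, with the number of regions in each. The share near gene ends is 3.77% in the top bar, 4.82% to 6.77% in the other 3 sets that changed with stage, and 22.6% among all regions.

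The median distance to the nearest transcription start was 57523 bp over the 307 regions for which a start was known, against 35965 bp for all regions, and 9.12% lay within 5 kb of one, against 24.8%. The regions had a median width of 524 bp, against 465 bp for all regions and 522 bp for the others hit by 10 to 13 libraries. Within 10 kb of a region present in at least 5 GNP libraries were 61 (19.2%), beside 9.04% of those in hyperplasia only and 27.5% of those in tumor only, which were chosen to be as rare in GNPs. The 318 were far from each other, with 1 pair of neighbours within 10 kb and 10 pairs within 100 kb.

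The 318 regions were spread over 264 nearest genes within 100 kb, and 41 regions (12.9%) had no such gene, against 11.0% of all regions. A single region fell to 255 of the genes. Asic2, a long gene of 1088234 bp, held 4 of its 32 regions, Msra, which encodes a reductase that repairs oxidized methionine, held 3 of 20, and Adra1b, the alpha-1B adrenergic receptor gene, 3 of 8. Pairs were found at Hk2, Vwf, Ptprn2, Rai14, Mtus1 and Cog2. The region of Adra1b inside the gene (chr11:43847868-43848616) ranked from 4301 to 16806 in hyperplasia (median 6774.5) and from 5465 to 38963 in tumors (median 17471.5), and the 2 outside it lay 57510 and 88833 bp away (chr11:43958535-43958986 and chr11:43989903-43990263). Their medians were 8358 and 14836.5 in hyperplasia, 10292 and 8235.5 in tumors, and 38035 and 49012 in the GNP libraries with a summit. The 3 regions near Adra1b thus did not share an order of hyperplasia and tumor.

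The 4 regions inside Asic2 differed as much. Beside the region without any GNP summit, with medians of 17091.5 in hyperplasia and 21073 in tumors, and the one that was stronger in tumor in the restricted fit, there were regions at chr11:80913341-80913990 (medians 19656 and 21873.5) and chr11:80995697-80996215 (20346.5 and 16349). Both of these last regions had a summit in all 6 GNP libraries. At Msra, the 3 regions had hyperplasia medians of 11845, 14100.5 and 8051 and tumor medians of 8045, 19274 and 10037 (chr14:64177669-64178124, chr14:64374505-64374951 and chr14:64532161-64532566). Without the third hyperplasia preparation the first of these hyperplasia medians was 5118, and without the first or second the last was 17247 or 16987. Some genes also lost peaks: 29 genes were nearest both to a region gained and kept and to one lost early, which is 11.0% of the 264 and 7.14% of the 406 genes nearest to an early-lost region. Of all 12960 genes nearest to a region, 3.13% were nearest to an early-lost one and 2.04% to one gained and kept. Asic2 had 1 and Msra 2 such lost regions, and Adra1b had 0. The overlap was not adjusted for the number of regions per gene, which was 32 at Asic2, 20 at Msra and 8 at Adra1b.

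The genes listed here for the granule lineage and its tumors were not among the nearest genes. These lists hold 100 genes, of which 95 matched by symbol, and other genes of the lineage or its tumors were not looked up. None of 535 regions nearest to genes of the sonic hedgehog pathway, granule progenitor identity, granule neuron differentiation, the NFI family, the cell cycle or medulloblastoma was gained and kept, where 0.740% of all regions with a nearest gene were. The sonic hedgehog list had 97 regions, granule progenitor identity 66, granule neuron differentiation 140, the NFI genes 76, the cell cycle 48 and medulloblastoma genes 108, and some genes were in several lists. Over all 16 lists, 8 of 1739 regions (0.460%) were gained and kept. Markers of oligodendrocytes (30 regions), microglia (3), vessels and meninges (31), Purkinje cells and interneurons (48) and non-neural tissues (4) had none either. Those of astrocytes and Bergmann glia had 1 of 38. With so few regions per list and a share of 0.740% over all, these counts say little about the cell types.

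Transcription factors of neural development held 3 of 373 regions, at Ebf1, Ebf3 and Foxp2. Inside Ebf1, a helix-loop-helix factor of neuronal differentiation (chr11:44841462-44842180), ranks ran from 9506 to 17571 in hyperplasia (median 16225.5) and from 6669 to 10568 in tumors (median 9261), with 3 GNP libraries at 29721 to 83250. The region 11356 bp from its relative Ebf3 (chr7:137333804-137334518) ranked from 9652 to 21697 (median 14992) and from 7059 to 12833 (median 9553.5). At both places tumor ranks leaned to the stronger side and overlapped those of hyperplasia. The Foxp2 region named above ranked from 2470 to 37089 in hyperplasia (median 4725.5) and from 2940 to 11476 in tumors (median 5937), with 5 of 6 libraries in the top 30000 in each stage. Its hyperplasia median was 10610.5 without the third preparation.

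Axon guidance and adhesion held 2 of 361 regions, inside the Robo ligand gene Slit3 (chr11:35244576-35244903, medians 17942.5 in hyperplasia and 18252 in tumors) and 27380 bp from the netrin receptor gene Unc5b (chr10:60858772-60859150, medians 23379 and 20959). Without the third hyperplasia preparation the Unc5b median there was 14679. The channel and receptor list held 1 of 280, at 26176 bp from Grid1, a delta-type glutamate receptor gene (chr14:34793534-34794121), with medians of 9165.5 and 6065. Its hyperplasia median was 17763 without the first hyperplasia preparation and 4335.5 without the second, and its tumor median was 10653 without the first tumor preparation. Among neural stem genes, 1 of 36 regions lay 47593 bp from Id2, an inhibitor of helix-loop-helix factors (chr12:25143422-25143948). Its median rank was 25610 in hyperplasia and 12213.5 in tumors, and 1 GNP library ranked it at 11508. The astrocyte marker Hopx had a region at 10925 bp (chr5:77075782-77076341) with medians of 25392 and 8865, and all 6 GNP libraries listed it between 18683 and 52130. The Id2 and Hopx regions thus each held a top summit in 1 GNP library, and their hyperplasia medians lay close to the limit of 30000.

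Chromosome 6 held 33 of the 318 regions (10.4%), against 5.84% of all regions. On chromosome 6, 1.35% of regions were gained and kept, against 0.720% elsewhere (285 of 39565). Chromosome 6 held 0.602% of the 166 regions seen in hyperplasia only and 21.9% of the 178 gained in tumor only. The first set was chosen to be rare in tumor and the second to be rare in hyperplasia. This contrast is thus not separate from the stronger tumor ranks on this chromosome given below. Of the regions gained in hyperplasia, 33 of 50 (66%) were kept in tumor on chromosome 6 and 285 of 854 (33.4%) elsewhere. Of those gained in tumor, 33 of 139 (23.7%) on chromosome 6 were already gained in hyperplasia, against 34.8% of 819 elsewhere, so the order turned with the stage from which the share was taken. The median difference of log2 rank, tumor minus hyperplasia, was −0.45 for the 33 regions on chromosome 6, with 23 of them stronger in tumor, and −0.03 for the 285 elsewhere. For all regions of chromosome 6 the median was −0.23, and 1780 of 2452 were stronger in tumor, while the median of the others was −0.00. The part of this chromosome-wide shift in the count of kept regions was not tested. Chromosome 16 stood at the low end with 5 regions (1.57%, against 3.63% of all).

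**Figure D5:**
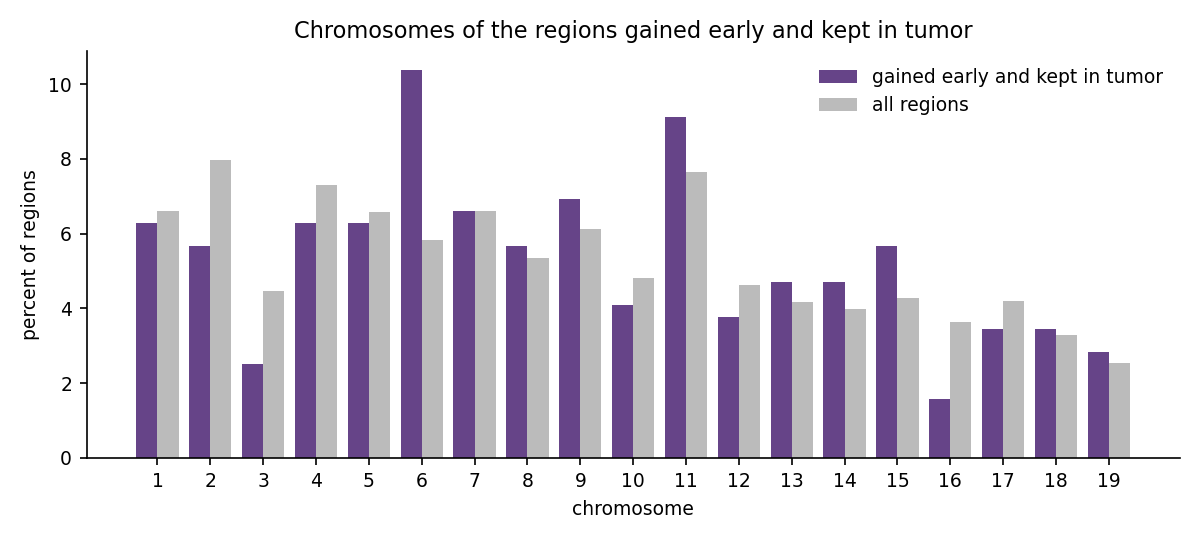
Share of the 318 regions and of all 42017 regions on each autosome, in percent. Chromosome 6 has 10.4% against 5.84%, chromosome 11 has 9.12% against 7.66%, and chromosome 16 has 1.57% against 3.63%.

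GNP and hyperplasia preparations shared 2 dates in their titles, so their contrast could be read within a date. On the first date, with 4 libraries against 4, 100 of the 318 regions and 321 of all 42017 were in every hyperplasia and no GNP library. On the second, with 2 against 2, the counts were 249 of the 318 and 2365 of all. These hits are the ones the selection used, so the counts are a description. Tumors had 3 other dates, so their contrast with the earlier stages and the date cannot be told apart. Which regions make up the set depended on the number of summits kept: with the 40000 highest-scoring summits 143 of the 318 were found again, and with the 15000 highest 32.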

How the data were processed

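CUT&Tag libraries for NFIA and NFIB from 3 stages were analysed as lists of peak summits, 1 list per library. The submitters' processing notes name Bowtie2, MACS2 and the mm10 assembly without versions. Use of a control library is not given in the sources consulted here. The deposited score of each summit is the −log10 of a p or q value from the authors' peak caller, with 2.00 as the lowest in any list, so that a missing summit means none listed. Depth is unknown, and no interval for counting error was computed. No pair of libraries shared more than 0.537% of its top positions.

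The regions and the gene lists were chosen with earlier results of these data known. Ties in score were broken by chromosome and start. limma 3.58.1 in R 4.3.3 (trend, empirical Bayes, Benjamini-Hochberg at 0.05) was fitted to log2 rank over all regions. In simulated data, log2 changes of 2 and of 4 were each planted in 100 regions. Tumor against hyperplasia recovered 2 and 38 of them over all regions, and 15 and 84 among regions in at least 6 of the 12 libraries. NFIB against NFIA recovered 63 and 97, simulated with the spread of preparations and not of single libraries. Other regions called numbered 0, 1 and 9. The values of GNP libraries were left out of the fits of both comparisons because the selection fixes them. Nearest genes were taken from 20661 protein-coding autosomal gene spans of RefSeq (GRCm38.p6) within 100 kb, starts and promoter sequence from a RefSeq table of the same assembly, with chromosome 18 not analysed for these. Of 289 list genes, 279 matched by symbol. The regions named were the 10 with 0 GNP, all 12 other libraries and the best worst rank, those past a test, those nearest to a list gene and those of genes with at least 3. The planned sequence content of the regions was searched in promoter windows only. Scripts ran in Python 3.11.15 with pandas 2.3.3, numpy 2.4.6, matplotlib 3.10.9 and SciPy 1.17.1. Coordinates are 1-based.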

Additional observations from a re-analysis of the deposited data

Results flagged for a closer look

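The second NFIA library of hyperplasia stood apart from the other 5 libraries of its stage. It held a top summit in 221 of the 318 regions, where the other hyperplasia libraries missed between 7 and 22 of the regions, and a summit of any rank in 274. For both counts its gap to the next library exceeded the critical share of the range (0.833 and 0.909, against 0.625 for 6 libraries), a test that flags about 1 in 20 groups by chance. Without it, 422 regions met the criteria, among them 316 of the 318, and limma still called 0 regions of the 318 in tumor against hyperplasia.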

How the results depend on the processing

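The number of regions depended on the settings more than any other result. It was 167 with the 15000 highest-scoring summits (32 of the 318 found again), 547 with all deposited summits (17 found again), 31 with the complete pattern, 153 with NFIA libraries alone and 1003 with the 12 libraries whose title and file name give the same target, where fewer libraries were asked for. Leaving out 1 preparation gave 410 to 543 regions (509, 495 and 543 without GNP preparations 1, 2 and 3), with at least 312 of the 318 among them. The calls of tumor against hyperplasia numbered 0 in 13 alternatives and 10 with regions in at least 6 of the 12 libraries. The calls of NFIB against NFIA numbered 0 in all 11. With a replicate block both counts were 0 as well, with 41 (12.9%) and 13 (4.09%) of the 318 at an unadjusted p under 0.05, against 9.47% and 2.47% of all regions. These shares of all regions also include regions with few top summits. In tumor against hyperplasia the block rests on numbers alone, since same-numbered preparations correlated with a mean of 0.0752 and other pairs with −0.0376. For NFIB against NFIA the block is the preparation that gave both libraries. The correlation of these libraries ran from −0.149 to 0.0463. With gene ends taken as 5 kb, 14.5% of the 318 lay near one and 43.1% further inside a gene, and 78.9% had a gene within 50 kb, against 87.1% within 100 kb. The shares of all regions at 5 kb and 50 kb were not computed. Those of the 318 with no GNP summit, 6 in all, numbered 9 to 16 when a GNP preparation was left out. Median ranks of named regions recomputed without a preparation moved by more than the spread in 2 cases and by less in 166, a spread that is wide with 6 libraries. By over 1.5 times moved 19 of the 168, among them the hyperplasia medians at Nhej1 (1413 to 4038, past the tumor median of 3815), Foxp2, Grid1 and Msra. Neither reads nor coverage were used, so binding below the lowest listed score could not be seen.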
